A study of Mus musculus with 18 samples.

Results

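The 9 genes described here encode enzymes that build and break down glycogen, together with a protein that brings phosphatase to it: Gys2, Gys1, Gyg, Gbe1, Ugp2, Pygl, Pygb, Pygm and Ppp1r3c. They are 9 of the 19938 genes with a signal of their own on the arrays, and each was read by 1 probe set whose single symbol is that gene. Gys2 was chosen by its measured values in these arrays (lower in STZ, SD than in Con, SD and higher in STZ, BEZ than in STZ, SD), so its differences are given as a description without a test. The other 8 genes belong to the same pathway and were tested, although they too were chosen with earlier results of these data known. In the RefSeq gene table the genes lie on mouse chromosomes 6 (Gys2), 7 (Gys1), 3 (Gyg), 16 (Gbe1), 11 (Ugp2), 12 (Pygl) and 2 (Pygb), with Pygm and Ppp1r3c on 19.

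Glycogen is the branched storage polymer of glucose. Ugp2 makes the activated sugar UDP-glucose, glycogenin (Gyg) primes a new chain on itself, glycogen synthase (Gys1 in muscle and many other tissues, Gys2 known as the liver form) lengthens it, and Gbe1 sets the branches. Glycogen phosphorylase, with the liver form Pygl, the brain form Pygb and the muscle form Pygm, releases glucose units as glucose-1-phosphate, and Ppp1r3c targets protein phosphatase-1 to glycogen, where it activates the synthase and shuts off the phosphorylase. White fat holds little glycogen in comparison with liver and muscle, and its turnover there is known to follow insulin and refeeding. In mice, Gys2 has been described as a PPAR target gene in liver and in adipocytes.

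Gene expression was measured in visceral fat of 18 wildtype male C57BL/6N mice with 1 Affymetrix Mouse Gene 1.0 ST array for each mouse, and values are log2 signals, on which a difference of 1 is a doubling. The STZ, BEZ group (5 mice) was made insulin-deficient with streptozotocin (STZ), which destroys pancreatic beta cells, and was then fed chow with bezafibrate (BEZ), an activator of all PPARs. The STZ, SD group (6 mice) received STZ and stayed on standard diet, and the Con, SD group (7 mice) received citrate buffer and standard diet. Per the labels, STZ was given at 65 mg/kg on each of 5 days in a row at 10 to 16 weeks of age, BEZ at 0.25% or 0.5% of the chow by weight for 8 weeks from 2 weeks after STZ, and the mice were 5 to 6 months old; the labels do not give the BEZ concentration of each mouse, and the study's methods state a different STZ dose, a single BEZ concentration and untreated controls. STZ lowers insulin in the whole animal, so a difference in fat cannot be told apart from one that follows from the diabetic state elsewhere in the body.

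The tissue label was checked with marker genes. All 14 measured white adipocyte markers (Adipoq, Plin1 and others) had a mean above the 90th percentile of genes (9.63), and their mean signal was 12.36 to 12.60 in STZ, BEZ, 10.31 to 12.44 in STZ, SD and 11.98 to 12.65 in Con, SD. Replicates 6, 4 and 3 of STZ, SD were the lowest arrays of the series for these markers (10.31, 11.36 and 11.57). The mean of 10 brown adipocyte markers was 7.10 to 7.60 in STZ, BEZ, above the 6.31 to 6.92 of STZ, SD and the 6.36 to 7.02 of Con, SD, and its part in the results was not tested. RNA of neighbouring organs was unequal among the groups. The mean of 15 pancreas genes was above that of all Con, SD arrays by more than 1 in STZ, SD replicate 6 (12.53) and in STZ, BEZ replicates 1 to 4 (10.47, 9.05, 8.80 and 8.38), against 5.88 to 6.21 in Con, SD. The mean of 17 epididymis and testis genes was 5.68 to 6.50 in STZ, BEZ, 5.54 to 11.12 in STZ, SD and 6.73 to 11.52 in Con, SD, and that of 15 muscle genes was 6.21 to 7.09, 6.14 to 6.39 and 6.41 to 8.13 in the same groups. The mean of 14 liver genes was 10.23 in STZ, BEZ replicate 5, against 7.20 to 7.64 in the other STZ, BEZ arrays, 6.82 to 7.72 in STZ, SD and 7.21 to 8.96 in Con, SD. The mean of 16 macrophage and neutrophil genes was 7.47 to 7.73 in STZ, BEZ, 6.97 to 7.67 in STZ, SD and 7.18 to 7.85 in Con, SD. In bulk fat, fewer adipocytes and less RNA per adipocyte cannot be told apart.

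Gys2, the glycogen synthase known from liver, had the widest differences of the 9 genes in STZ, BEZ vs. STZ, SD and in STZ, SD vs. Con, SD. Its log2 signal in the STZ, BEZ mice was 9.96, 9.13, 9.82, 8.20 and 9.06. In the STZ, SD mice it ran between 5.48 and 8.30 with a median of 6.41, and in the Con, SD mice between 7.00 and 9.47 with a median of 8.33. STZ, BEZ values lay above STZ, SD values except that the lowest STZ, BEZ mouse (8.20) was below the highest STZ, SD mouse (8.30), and STZ, SD and Con, SD overlapped. The means were 9.23 ± 0.70 in STZ, BEZ (SD, n = 5), 6.73 ± 1.18 in STZ, SD (n = 6) and 8.36 ± 1.07 in Con, SD (n = 7). The STZ, BEZ mean was thus higher than the STZ, SD mean by 2.50 (SE 0.58), a 5.68-fold difference, and all 5 STZ, BEZ mice were above the STZ, SD mean. The STZ, SD mean was lower than the Con, SD mean by 3.11-fold (log2 difference -1.63, SE 0.53), with all 6 STZ, SD mice below the Con, SD mean. Between STZ, BEZ and Con, SD the difference was 0.87 (SE 0.56), with 4 of 5 STZ, BEZ mice above the Con, SD mean, and the ranges overlapped.

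**Figure D1:**
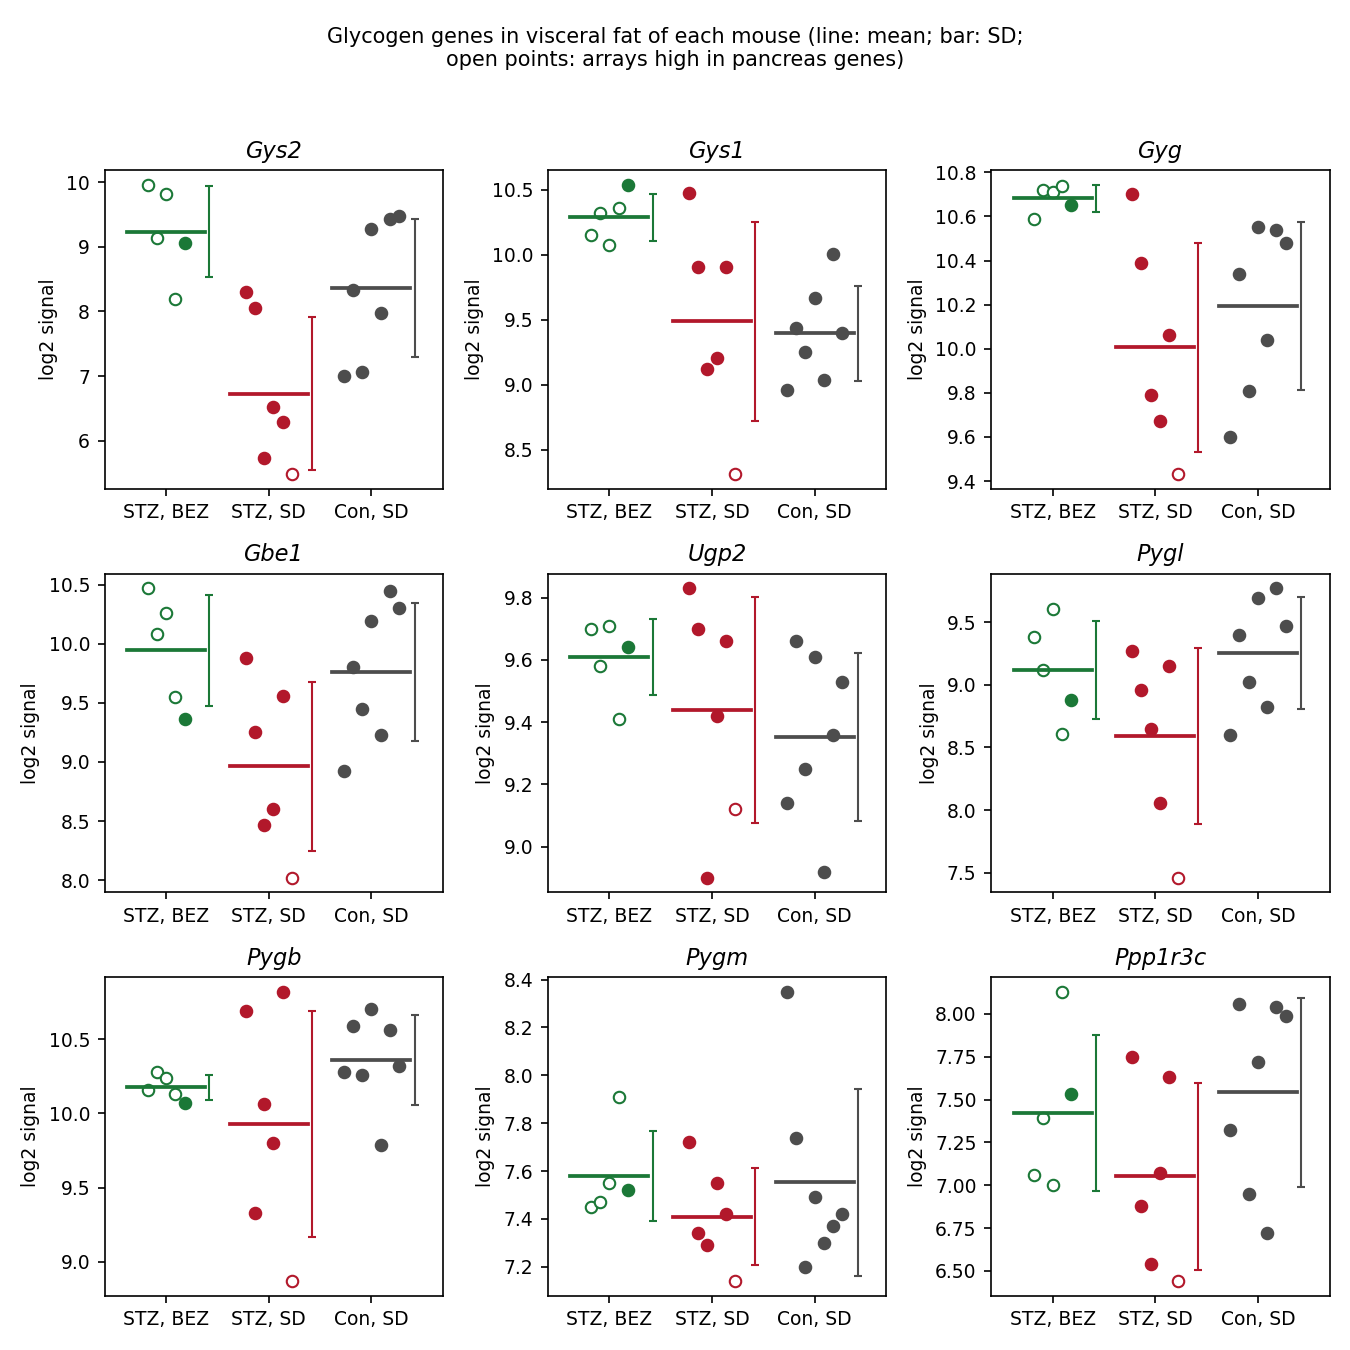
Log2 signal (vertical axis) of each of the 9 glycogen genes in each mouse of the STZ, BEZ, STZ, SD and Con, SD groups, with points for mice, a line for the group mean and a bar for the SD; open points are the 5 arrays high in pancreas genes. Gys2 averaged 9.23 in STZ, BEZ, 6.73 in STZ, SD and 8.36 in Con, SD, and the Gys1 and Gyg values of STZ, BEZ lie above all Con, SD values. The share of all genes that separate these groups was not computed.

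Gys2 also varied most among mice of the same group. Its within-group SD was 1.03, at the 98.0 percentile of all genes, against 0.60 for Gbe1, 0.54 for Pygl, 0.52 for Ppp1r3c, 0.51 for Gys1, 0.48 for Pygb, 0.37 for Gyg, 0.29 for Pygm and 0.28 for Ugp2. The 2 highest STZ, SD mice for Gys2, replicates 1 (8.30) and 2 (8.05), were within the Con, SD range, and the other 4 (5.48 to 6.53) were below it. STZ, SD replicate 5 had Gys2 at 6.29 while its white adipocyte marker mean was 12.44, and STZ, SD replicate 1 had Gys2 at 8.30 with a marker mean of 12.41. The 2 mice were picked after their values were seen, and their difference in Gys2 was not tested. Their means of epididymis and testis genes also differed (7.01 in replicate 5 and 5.54 in replicate 1).

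With the white adipocyte marker mean as a covariate, the Gys2 differences shrank to 1.42 (SE 0.59) between STZ, BEZ and STZ, SD and to -0.74 (SE 0.53) between STZ, SD and Con, SD. Without the 5 arrays high in pancreas genes, which leaves 1 STZ, BEZ array, they were 2.08 (SE 1.08) and -1.39 (SE 0.58). The epididymis and testis markers as a covariate moved the difference between STZ, BEZ and Con, SD from 0.87 to 0.14 (SE 0.60). The white adipocyte marker mean itself differed among the groups (median 12.52 in STZ, BEZ, 11.65 in STZ, SD and 12.54 in Con, SD). Here and below, this covariate can therefore also remove part of a treatment difference, and the 2 cannot be told apart.

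Gys1, the synthase of muscle and most other tissues, was the member called by the test, and only in the STZ, BEZ vs. Con, SD comparison. Its log2 signal was 10.15, 10.32, 10.08, 10.36 and 10.54 in the STZ, BEZ mice. It ran from 8.31 to 10.48 in STZ, SD (median 9.56) and from 8.96 to 10.01 in Con, SD (median 9.40). Every STZ, BEZ mouse was above every Con, SD mouse, whereas STZ, SD overlapped both other groups. The share of all genes that separate STZ, BEZ from Con, SD was not computed. Gys1 rose by 0.89 in STZ, BEZ vs. Con, SD (SE 0.28, 1.85-fold, limma adjusted p = 0.094). Between STZ, BEZ and STZ, SD the difference was 0.80 (SE 0.29, adjusted p = 0.318), with all 5 STZ, BEZ mice above the STZ, SD mean, and between STZ, SD and Con, SD it was 0.09 (95% interval -0.47 to 0.65, adjusted p = 0.889). The call in STZ, BEZ vs. Con, SD was lost when any of 12 single arrays was left out (all 5 of STZ, BEZ, replicates 4 and 5 of STZ, SD, and replicates 1, 2, 3, 5 and 7 of Con, SD; adjusted p = 0.102 to 0.235) and strengthened without STZ, SD replicate 6 (adjusted p = 0.0232). Without the 5 arrays high in pancreas genes, which leaves STZ, BEZ replicate 5 alone (the array high in liver genes), the difference was 1.14 (adjusted p = 0.335); this fit assumes that the lone array varies like those of the other groups. With the white adipocyte markers as a covariate, the call in STZ, BEZ vs. Con, SD was kept (0.76, adjusted p = 0.00516), Gys1 was called higher in STZ, SD vs. Con, SD as well (0.75, adjusted p = 0.0181), and the difference in STZ, BEZ vs. STZ, SD was 0.01 (adjusted p = 0.999). The call in STZ, BEZ vs. Con, SD was lost with the epididymis and testis markers (0.66, adjusted p = 0.365) or the muscle markers (0.86, adjusted p = 0.182) as a covariate. It was kept with the pancreas genes as a covariate (1.35, limma adjusted p = 0.00398). With that covariate Gys1 was also called higher in STZ, BEZ vs. STZ, SD (1.08, adjusted p = 0.0193), beside 1354 of all genes (136 without it). The pancreas genes differed among the groups, so this covariate can also change a treatment difference.

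The known promoter sequence of Gys1 is shown because Gys1 is the called member and its window has the most matches among the members. It covers the 250 bases before the RefSeq start of Gys1 at chr7:45434589-45434838 (GRCm38.p6, plus strand), 5′ to 3′. The motifs searched on both strands were CCAAT, the GC box GGGCGG, the E box CACGTG, the nuclear receptor half-site AGGTCA and the PPAR direct repeat, which is 2 half-sites with 1 base between them, and the capitals mark a match on either strand.
Gys1 promoter: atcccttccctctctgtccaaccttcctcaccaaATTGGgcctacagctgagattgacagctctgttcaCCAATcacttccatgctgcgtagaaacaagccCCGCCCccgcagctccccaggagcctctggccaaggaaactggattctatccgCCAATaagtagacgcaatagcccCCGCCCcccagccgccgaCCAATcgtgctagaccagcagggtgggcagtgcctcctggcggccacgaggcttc
It had 4 matches to CCAAT and 2 to GGGCGG. Any match to CCAAT was present in 33.8%, and any match to GGGCGG in 32.7%, of 32851 promoter windows of this length. The number of matches per window was not compared with those windows. The direct repeat was in 0.0335% of all windows and in 0 of the 9 windows of the 8 members other than Gys2, whose promoter was not searched.

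Gyg, the glycogenin that starts each particle, was higher in STZ, BEZ mice than in both other groups without passing the threshold. Its log2 signal was 10.59, 10.72, 10.71, 10.74 and 10.65 in STZ, BEZ, with an SD of 0.06. It ran from 9.43 to 10.70 in STZ, SD (median 9.93) and from 9.60 to 10.55 in Con, SD (median 10.34). The STZ, BEZ values did not overlap those of Con, SD, and 1 STZ, SD mouse (replicate 1) reached into the STZ, BEZ range. How many of all genes separate those groups was not computed. The differences were 0.68 (SE 0.21, limma adjusted p = 0.23) in STZ, BEZ vs. STZ, SD, 0.49 (SE 0.20, adjusted p = 0.206) in STZ, BEZ vs. Con, SD and -0.19 (SE 0.19, adjusted p = 0.642) in STZ, SD vs. Con, SD. In STZ, BEZ vs. Con, SD it was 0.24 (limma adjusted p = 0.667) with the epididymis and testis covariate and 0.44 (0.348) with the muscle covariate. With the pancreas covariate it was 0.69 (0.0537), and with the white adipocyte covariate 0.40 (0.0935).

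Ugp2, the enzyme that supplies UDP-glucose to glycogen and to other sugar conjugates, showed small differences. It ran from 9.41 to 9.71 in STZ, BEZ (median 9.64), from 8.90 to 9.83 in STZ, SD (median 9.54) and from 8.92 to 9.66 in Con, SD (median 9.36), and the ranges overlapped. The differences were 0.17 (95% interval -0.17 to 0.51, adjusted p = 0.795) in STZ, BEZ vs. STZ, SD, 0.09 (-0.23 to 0.40, adjusted p = 0.802) in STZ, SD vs. Con, SD and 0.25 (-0.07 to 0.58, adjusted p = 0.412) in STZ, BEZ vs. Con, SD by limma.

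Gbe1, the branching enzyme, followed the order of Gys2 with smaller differences. Its log2 signal was 10.47, 10.08, 10.26, 9.55 and 9.36 in STZ, BEZ. In STZ, SD it ran from 8.02 to 9.88 (median 8.93), and in Con, SD from 8.92 to 10.45 (median 9.80). Groups overlapped, with 5 of 6 STZ, SD mice below the Con, SD mean and all 5 STZ, BEZ mice above the STZ, SD mean. The differences were 0.98 (SE 0.34, 1.97-fold, limma adjusted p = 0.302) in STZ, BEZ vs. STZ, SD, -0.80 (SE 0.31, adjusted p = 0.15) in STZ, SD vs. Con, SD and 0.18 (SE 0.33, adjusted p = 0.827) in STZ, BEZ vs. Con, SD. STZ, SD replicate 1 was the highest STZ, SD mouse for Gys2, Gys1, Gyg and Gbe1. Without it, 3 members were called higher in STZ, BEZ vs. STZ, SD, namely Gyg (0.81, adjusted p = 0.0412), Gys1 (1.00, adjusted p = 0.0621) and Gbe1 (1.16, adjusted p = 0.0902), and Gbe1 was called lower in STZ, SD vs. Con, SD (-0.98, adjusted p = 0.0771). The count over all genes moved as well without this array, to 659 higher in STZ, BEZ vs. STZ, SD (136 with it). Leaving out Con, SD replicate 1, the array highest in muscle genes (8.13), also brought Gbe1 under the threshold in that comparison (-0.94, adjusted p = 0.0822). With the white adipocyte markers as a covariate, Gbe1 differed by 0.09 (adjusted p = 0.998) in STZ, BEZ vs. STZ, SD and by -0.06 (adjusted p = 0.895) in STZ, SD vs. Con, SD.

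Pygl, the phosphorylase known from liver, was the breakdown enzyme with the widest difference in STZ, SD. It measured 9.38, 9.12, 9.60, 8.61 and 8.88 in STZ, BEZ. It ran from 7.46 to 9.27 in STZ, SD (median 8.81) and from 8.60 to 9.77 in Con, SD (median 9.40). The 2 lowest values of the series were STZ, SD replicates 6 (7.46) and 4 (8.06), and the ranges overlapped. Pygl differed by -0.66 (SE 0.28, limma adjusted p = 0.185) in STZ, SD vs. Con, SD, by 0.52 (SE 0.30, adjusted p = 0.606) in STZ, BEZ vs. STZ, SD and by -0.13 (SE 0.29, adjusted p = 0.86) in STZ, BEZ vs. Con, SD.

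Pygb, the phosphorylase known from brain, was spread widely in STZ, SD (8.87 to 10.82, median 9.93) around the narrow range of STZ, BEZ (10.07 to 10.28), with 9.79 to 10.70 in Con, SD. Its differences were -0.43 (SE 0.25, adjusted p = 0.377) in STZ, SD vs. Con, SD, 0.25 (SE 0.27, adjusted p = 0.834) in STZ, BEZ vs. STZ, SD and -0.18 (SE 0.26, adjusted p = 0.777) in STZ, BEZ vs. Con, SD by limma. Pygm, the muscle phosphorylase, was 7.45 to 7.91 in STZ, BEZ, 7.14 to 7.72 in STZ, SD and 7.20 to 8.35 in Con, SD. Its highest value, 8.35, came from Con, SD replicate 1, the array with the highest mean of muscle genes (8.13), and the part of muscle RNA in Pygm was not tested beyond the covariate, with which the difference in STZ, SD vs. Con, SD changed from -0.14 to 0.30. All Pygm differences were within 0.17 of 0 (limma adjusted p = 0.664 to 0.946).

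Ppp1r3c, the glycogen-targeting subunit of protein phosphatase-1, ran from 7.00 to 8.13 in STZ, BEZ (median 7.39), from 6.44 to 7.75 in STZ, SD (median 6.97) and from 6.72 to 8.06 in Con, SD (median 7.72). The groups overlapped throughout. Its differences were -0.49 (SE 0.27, limma adjusted p = 0.341) in STZ, SD vs. Con, SD, 0.37 (SE 0.30, adjusted p = 0.747) in STZ, BEZ vs. STZ, SD and -0.12 (SE 0.29, adjusted p = 0.872) in STZ, BEZ vs. Con, SD.

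**Figure D2:**
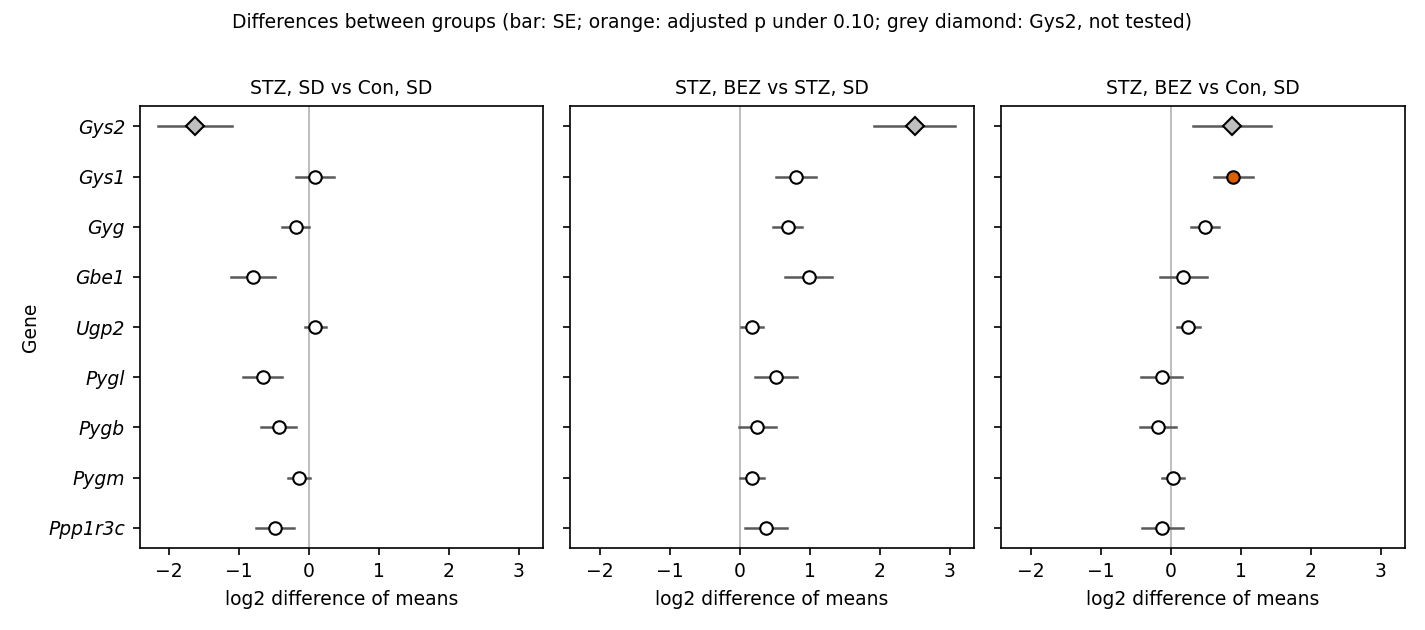
Log2 difference between the group means (horizontal axis) for each of the 9 genes in the 3 comparisons, with bars of 1 SE; orange marks a limma adjusted p under 0.10 and the grey diamond is Gys2, which was not tested. Gys1 in STZ, BEZ vs. Con, SD (0.89) is the orange point, and all 8 tested members lie right of 0 in STZ, BEZ vs. STZ, SD.

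Counted together, the 8 tested members were called by limma 0 times in STZ, SD vs. Con, SD, where 5.82% of all genes were called higher and 4.52% lower. At an unadjusted p under 0.05, 2 members (Gbe1 and Pygl) were lower, beside 1916 of all 19938 genes. The SAM method called 1 (Gbe1), beside 1467 of all genes higher and 1185 lower. In STZ, BEZ vs. STZ, SD limma also called 0 of 8, beside 0.682% of all genes higher and 0.0251% lower. Here 3 members (Gyg, Gbe1 and Gys1) were higher at an unadjusted p under 0.05, beside 1504 of all 19938 genes. SAM called 1 (Gyg), beside 361 of all genes higher and 79 lower. All 8 differences were positive in this comparison, beside 10390 of all 19938 genes. Their median was 0.45 and their range 0.17 to 0.98, against a median of 0.00761 over all genes. With the white adipocyte markers as a covariate, 4 of these differences were negative (Ugp2, Pygl, Pygb and Ppp1r3c), and Gys1 was at 0.01, Gbe1 at 0.09 and Gyg at 0.17. In STZ, SD vs. Con, SD 6 of 8 were below 0, beside 11232 of all 19938 genes that were not above 0. The median of the 8 was -0.31, against -0.0276 over all genes. These comparisons share the STZ, SD arrays, so their opposite signs are not independent of each other. In STZ, BEZ vs. Con, SD 1 of 8 was called (Gys1), beside 4.57% of all genes higher and 1.38% lower. SAM called 3 (Gys1, Gyg and Ugp2), beside 3172 of all 19938 genes higher and 2313 lower. The median difference of the members there was 0.11, against -0.00618 over all genes, with 5 of 8 above 0 (9697 of all 19938 genes).

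Over the 18 arrays, the signals of Gys2, Gbe1 and Gyg ran closely together. Gbe1 had the sixth highest correlation with Gys2 (Pearson's r = 0.89, rank 6 of 19937 genes) and Gyg the rank 21 (r = 0.87), whereas Pygl had r = 0.77, Gys1 0.66, Ugp2 0.58, Ppp1r3c 0.49, Pygb 0.39 and Pygm 0.11. The 5 genes above Gbe1, each at r = 0.90, were Fabp5 and Plin2, which bind fatty acids and coat lipid droplets, Mtch2, a protein of the outer mitochondrial membrane, Mfsd8, a lysosomal membrane protein, and Cox19, an assembly factor of cytochrome c oxidase. The 3 lowest were Acin1 (-0.84), Arrdc4 (-0.83) and Chka (-0.83). After subtraction of the group means, r with Gys2 was 0.86 for Gyg and 0.84 for Gbe1, so the likeness was also present among mice of the same group. The arrays differed in white adipocyte marker signal, and its part in these correlations was not tested. The correlations are descriptions without a test.

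Gbe1 and Pygl were the most alike pair of members (r = 0.92 over the 18 arrays, and 0.92 after subtraction of the group means). Their promoter windows are shown to set this pair side by side; each covers the 250 bases before the RefSeq start, for Gbe1 at chr16:70313699-70313948 (GRCm38.p6, plus strand) and for Pygl at chr12:70227684-70227933 (minus strand), 5′ to 3′, with capitals for a match to the motifs above on either strand.
Gbe1 promoter: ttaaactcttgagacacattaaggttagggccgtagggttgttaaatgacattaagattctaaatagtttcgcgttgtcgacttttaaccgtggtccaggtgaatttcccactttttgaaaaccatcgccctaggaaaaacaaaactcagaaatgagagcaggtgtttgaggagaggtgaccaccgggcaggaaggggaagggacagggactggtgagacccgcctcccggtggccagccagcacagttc
Pygl promoter: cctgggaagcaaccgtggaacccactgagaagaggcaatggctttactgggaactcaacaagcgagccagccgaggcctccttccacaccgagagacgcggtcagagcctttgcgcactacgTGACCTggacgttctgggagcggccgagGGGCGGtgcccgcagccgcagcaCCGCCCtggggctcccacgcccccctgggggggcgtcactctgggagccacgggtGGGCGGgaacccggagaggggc
The Gbe1 window had no match and 48.8% G or C, against a median of 52.4% over all windows. The Pygl window had 69.2% G or C, with 3 matches to GGGCGG and 1 to AGGTCA, a half-site found in 14.0% of all windows.

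Member signals were then set against the mean of the 14 white adipocyte markers among mice of the same group, which gave 18 relations in the 2 groups of at least 6 mice (p from exact two-sided permutation, Benjamini-Hochberg adjusted over the 18, threshold 0.05). In Con, SD (n = 7 mice) Pygl had Pearson's r = 0.98 (exact p = 0.000198, adjusted p = 0.00357) and Spearman's rho = 1.00 (adjusted p = 0.00714). Gbe1 had r = 0.96 (exact p = 0.000397, adjusted p = 0.00357) and rho = 0.96 (adjusted p = 0.0167) there, and Gys2 r = 0.88 (exact p = 0.0234, adjusted p = 0.0381) and rho = 0.86 (adjusted p = 0.0714). In all, 8 of 9 members had an adjusted p under 0.05 by r in Con, SD and 4 by rho, the exception by r being Pygm (r = -0.29, exact p = 0.621). The relation was computed for the 9 members alone, so these counts cannot be set beside a share over all genes.

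In STZ, SD (n = 6 mice) 5 of 9 members had an adjusted p under 0.05 by r, from Pygl (r = 0.96, exact p = 0.00278, adjusted p = 0.0125) and Gbe1 (r = 0.93, exact p = 0.00556, adjusted p = 0.02) to Gys1, Pygb and Ppp1r3c, and 0 by rho, where the lowest adjusted p was 0.06 (Pygl). Gys2 was among those that did not pass (r = 0.59, exact p = 0.224, adjusted p = 0.237, rho = 0.54). Without the 2 mice farthest from the median of the markers, r in STZ, SD was 0.74 for Gys2, 0.93 for Gbe1 and 0.89 for Pygl, and in Con, SD it was 0.94, 0.89 and 0.94 for the same genes. The difference in r between the groups was not tested, and no correlation was computed over the 5 STZ, BEZ mice. The share of all genes that follow the markers was not computed in STZ, SD either. The markers and members were measured on the same arrays and share the RNA and its dilution by other tissues.

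**Figure D3:**
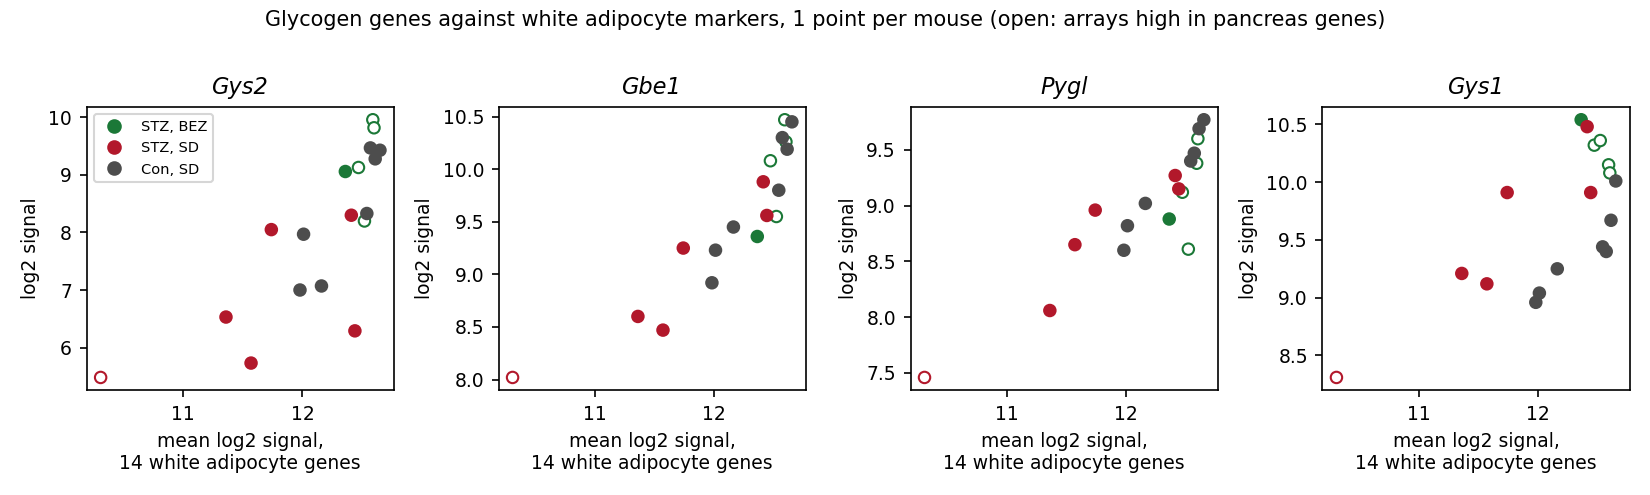
Log2 signal of Gys2, Gbe1, Pygl and Gys1 (vertical axes) against the mean log2 signal of 14 white adipocyte markers (horizontal axis), 1 point per mouse, coloured by group (STZ, BEZ, STZ, SD and Con, SD) and open for arrays high in pancreas genes. Pygl runs along the markers in Con, SD (r = 0.98) and STZ, SD (r = 0.96), whereas STZ, SD replicate 5 lies low for Gys2 (6.29) at a marker mean of 12.44.

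The rest of the pathway was followed in a list of other glycogen genes, of which 30 had a signal of their own. In STZ, SD vs. Con, SD 4 of 30 fell and 2 rose, beside 4.52% lower and 5.82% higher over all genes. Among the phosphatase subunits, Ppp1r3b, which targets the phosphatase to glycogen in liver, fell by 0.61 (SE 0.14, limma adjusted p = 0.0203), with 6.77 to 7.51 in STZ, SD and 7.55 to 8.20 in Con, SD, so that the groups did not overlap. The share of all genes without overlap was not computed. The further glycogen-targeting subunit Ppp1r3d fell by 0.39 (SE 0.13, adjusted p = 0.0867) and the catalytic subunit Ppp1ca by 0.40 (SE 0.12, adjusted p = 0.0598). All 6 STZ, SD mice were below the Con, SD mean for each of these 3 genes.

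Phkb, a subunit of the kinase that activates phosphorylase, fell by 0.38 (SE 0.13, adjusted p = 0.0925). The genes that rose were Hk1, a hexokinase that makes glucose-6-phosphate (0.30, SE 0.08, adjusted p = 0.0452), and Stbd1, a protein that tethers glycogen to membranes (0.25, SE 0.08, adjusted p = 0.0866). The median of the list was -0.08, and SAM called 6, beside 1467 of all 19938 genes higher and 1185 lower. With the white adipocyte markers as a covariate, Ppp1r3b (-0.39, adjusted p = 0.12), Ppp1r3d (-0.20, adjusted p = 0.411), Ppp1ca (-0.19, adjusted p = 0.348), Phkb (-0.24, adjusted p = 0.346), Hk1 (0.16, adjusted p = 0.258) and Stbd1 (0.26, adjusted p = 0.144) were not called. Hk1 depended on the probe set, since the mean of its probe sets differed by 0.05 (adjusted p = 0.879).

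Leaving out 1 array in turn ended no call of Ppp1r3b. It ended the call of Hk1 without STZ, SD replicate 2 (adjusted p = 0.109) and that of Ppp1ca without STZ, SD replicate 2 or 4 or Con, SD replicate 6 (adjusted p = 0.117 to 0.138). The calls of Stbd1, Phkb and Ppp1r3d were lost without 9, 11 and 14 of the 18 arrays.

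In STZ, BEZ vs. STZ, SD limma called 0 of the 30 genes, beside 0.682% of all genes higher and 0.0251% lower. At an unadjusted p under 0.05, 4 were higher and 2 lower (1504 and 532 of all 19938 genes). SAM called 2, beside 361 of all genes higher and 79 lower. The median of the list was 0.05. The widest difference was that of Slc2a4, the insulin-responsive glucose transporter (1.28, SE 0.39, adjusted p = 0.224), and the 4 genes that fell in STZ, SD differed by 0.45 (Ppp1ca, adjusted p = 0.19), 0.29 (Ppp1r3d, adjusted p = 0.507), 0.23 (Ppp1r3b, adjusted p = 0.67) and 0.22 (Phkb, adjusted p = 0.662). Hk1 differed by -0.27 (adjusted p = 0.271), with 12.04 to 12.22 in STZ, BEZ and 12.22 to 12.57 in STZ, SD. In STZ, BEZ vs. Con, SD limma likewise called 0, beside 4.57% of all genes higher and 1.38% lower. At an unadjusted p under 0.05, 1 was higher and 1 lower (2260 and 1388 of all 19938 genes). SAM called 6, beside 3172 of all genes higher and 2313 lower, and the median of the list was 0.02.

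**Figure D4:**
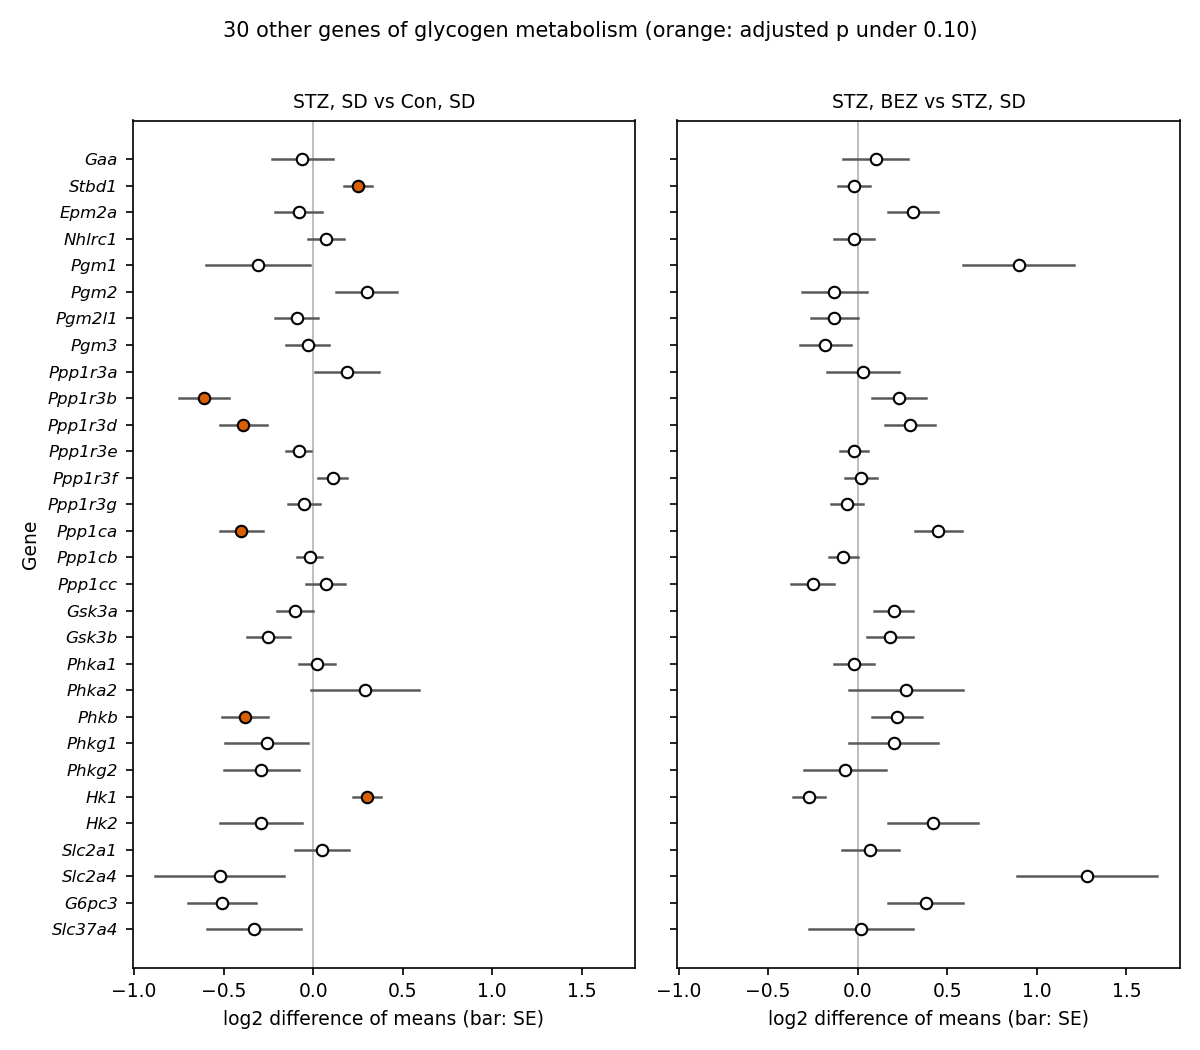
Log2 difference between the group means (horizontal axis, bars of 1 SE) for 30 other glycogen genes in STZ, SD vs. Con, SD and in STZ, BEZ vs. STZ, SD; orange marks a limma adjusted p under 0.10. In the STZ, SD vs. Con, SD panel 4 orange points lie left of 0, with Ppp1r3b farthest at -0.61, and 2 lie right of it, and the STZ, BEZ vs. STZ, SD panel has 0.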

How the data were processed

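Per the labels, biotin-labelled RNA of visceral fat was hybridised on Mouse Gene 1.0 ST arrays. The deposited values are log2 signals that the authors summarised with RMA in Affymetrix Expression Console 1.2, with no scanner intensities used here; scan dates and other batches are not given in the sources used here, and the number of arrays limits the precision. Array medians were 6.76 to 6.87, and array pairs correlated at 0.903 to 0.991. Of 35556 probe sets, 21789 had a single symbol in the platform annotation, 1621 several and 12146 none, and the probe set with the highest mean was kept for each of 19938 genes (19856 matched to RefSeq by Entrez ID). No filter on low signals was used.

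Groups were taken from the sample titles and compared with limma 3.58.1 (R 4.3.3) in a single fit of 18 arrays (15 residual and 2.44 prior degrees of freedom), with Benjamini-Hochberg adjustment over all genes and a threshold of 0.10, after the false discovery rate of 10% of the study. The members, marker lists and other glycogen genes were chosen with earlier results of these data known. Named were all members, called genes of the list of other glycogen genes, and the 6 genes most and 3 least correlated with Gys2; Slc2a4 was named after its values were seen. The fit was tested on simulated data. The relation to adipocyte markers was added after the data were seen. Correlations used Python 3.11.15 and scipy 1.17.1. Promoter sequences are those of RefSeq (GRCm38.p6; 250 bases upstream; 8 of 9 members matched). Alternatives were SAM with 100 permutations, other normalizations, filters, probe set rules, thresholds, variance models and array weights, 2-group fits, the replicate number as a block, marker lists as covariates, and single arrays left out. The titles call the replicates biological; the files do not say more on the mice.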

Additional observations from a re-analysis of the deposited data

Results flagged for a closer look

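Within each group, the highest or lowest of the values was compared with the rest by Dixon's ratio for the 9 members, 6 other glycogen genes and 7 marker lists, 66 groups of values in all, and 4 stood apart, where chance alone gives about 1 in 20. Pygm was 7.91 in STZ, BEZ replicate 4, against 7.45 to 7.55 in the other STZ, BEZ mice; this mouse also had the highest mean of muscle genes in its group (7.09), and the part of muscle RNA in the value was not tested. Hk1 was 12.04 in STZ, BEZ replicate 3, below the 12.17 to 12.22 of the other STZ, BEZ mice. The mean of the liver genes was 10.23 in STZ, BEZ replicate 5, against 7.20 to 7.64 in the rest of that group, and Gys2, known from liver, was 9.06 in this mouse, within the range of its group. The mean of the pancreas genes was 12.53 in STZ, SD replicate 6, against 5.84 to 6.04 in the other STZ, SD mice, and this mouse had the lowest value of its group for Gys2 (5.48), Gys1 (8.31), Gyg (9.43), Gbe1 (8.02), Pygl (7.46), Pygb (8.87), Pygm (7.14) and Ppp1r3c (6.44), but not for Ugp2 (9.12).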

How the results depend on the processing

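The direction of the 3 Gys2 differences held under every alternative run: -2.02 to -0.74 in STZ, SD vs. Con, SD, 1.42 to 2.68 in STZ, BEZ vs. STZ, SD and 0.14 to 1.16 in STZ, BEZ vs. Con, SD. With single arrays left out they were -1.95 to -1.39, 2.26 to 2.82 and 0.64 to 1.13. Gys2 was chosen by its values in these same arrays, so the held direction is a description and not a test. The value that moved by more than the within-group SD was 1.42, with the white adipocyte markers as a covariate (2.50 without). Each member has 1 probe set, so another probe set could not be tried. With so few calls, counts moved easily, and the causes were not tested.

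In STZ, SD vs. Con, SD the members called (0) were 1 by SAM, 2 with the epididymis and testis covariate and 1 with the white adipocyte covariate. Over all genes, these settings called 1467 higher and 1185 lower, 1281 and 1215, and 1758 and 399 (1161 and 902 in the main fit). The other glycogen genes called (6) were 2 at an adjusted p under 0.05, 1 in the 2-group fit, 3 with the epididymis and testis covariate, 1 with the muscle covariate, 3 with the white adipocyte covariate and 1 without the arrays high in pancreas genes. In STZ, BEZ vs. STZ, SD the members called (0) were 1 by SAM and 3 with the pancreas covariate (Gys1, Gyg and Gbe1). The other genes (0) were 2 by SAM, 2 with array weights and 8 with the pancreas covariate. Over all genes, the pancreas covariate called 1354 higher and 684 lower, array weights 343 and 35, and SAM 361 and 79 (136 and 5 in the main fit). In STZ, BEZ vs. Con, SD the members called (1) were 3 by SAM, 2 each with array weights, the 2-group fit, the pancreas covariate and the white adipocyte covariate, and 0 at an adjusted p under 0.05, with the epididymis and testis or the muscle covariate, and without the arrays high in pancreas genes (1 STZ, BEZ array, assumed to vary like the other groups). The other genes (0) were 6 by SAM, 1 after quantile normalization, 5 each with array weights and the 2-group fit, 7 with the pancreas covariate and 3 with the white adipocyte covariate. Over all genes, SAM called 3172 higher and 2313 lower there, array weights 2360 and 1444, and the 2-group fit 1984 and 836. The pancreas covariate called 2734 and 1502, and the white adipocyte covariate 1358 and 542 (912 and 275 in the main fit). Quantile normalization called 938 and 295, and the threshold of 0.05 called 477 and 125. The epididymis and testis covariate called 184 and 125, and the muscle covariate 510 and 199. With single arrays left out, members called were 0 to 1, 0 to 3 and 0 to 1 in the 3 comparisons in the order above, and other genes 1 to 7, 0 to 3 and 0 to 2. Over all genes, these fits called 691 to 1903, 11 to 659 and 338 to 1584 higher. Lower were 437 to 1207, 0 to 59 and 77 to 520.

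Whether the replicate numbers pair the samples could not be settled. Of 16 same-number pairs, the deviations of 2 correlated above 0.1 (range -0.357 to 0.70). They were not compared with pairs of different numbers. The replicate number as a block gave Gys2 differences of -1.45, 2.51 and 1.05. With this block 0 members were called in STZ, BEZ vs. Con, SD, where Gys1 was 0.83 (adjusted p = 0.243) and Pygm -0.04, and 0 other genes in STZ, SD vs. Con, SD; over all genes it called 444 higher and 236 lower in STZ, SD vs. Con, SD (1161 and 902 without), 2 and 0 in STZ, BEZ vs. STZ, SD (136 and 5) and 370 and 229 in STZ, BEZ vs. Con, SD (912 and 275).

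Members that were not called changed sign as follows. With the white adipocyte covariate, Gyg (0.23), Pygl (0.04), Pygb (0.19) and Ppp1r3c (0.02) turned positive in STZ, SD vs. Con, SD, and Ugp2 (-0.16), Pygl (-0.31), Pygb (-0.50) and Ppp1r3c (-0.25) turned negative in STZ, BEZ vs. STZ, SD. With the epididymis and testis covariate, Gys1 (-0.03) and Ugp2 (-0.07) turned in STZ, SD vs. Con, SD, and Gbe1 (-0.17), Ugp2 (-0.05) and Pygm (-0.11) in STZ, BEZ vs. Con, SD. With the muscle covariate Pygm was 0.30 in STZ, SD vs. Con, SD and -0.0031 in STZ, BEZ vs. STZ, SD, and Ppp1r3c 0.06 in STZ, BEZ vs. Con, SD. With the pancreas covariate Pygl (0.19), Pygb (0.18) and Ppp1r3c (0.14) turned in STZ, BEZ vs. Con, SD, and without the arrays high in pancreas genes Gbe1 (-0.41) and Pygm (-0.03) did, as did Pygb in STZ, BEZ vs. STZ, SD (-0.07; -0.0058 with array weights). Leaving out single arrays gave -0.10 to 0.33 for Gys1 in STZ, SD vs. Con, SD and -0.05 to 0.16 for Pygm in STZ, BEZ vs. Con, SD.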
